A study of Mus musculus with 42 samples.

Results

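Gene expression in the aorta was compared between mice given SHENQI compound and mice given rosiglitazone. The difference between the drugs rests on the 6 arrays whose titles carry those drugs and the aorta, 3 for each drug, out of 42 arrays in the series. Both groups were male KK/Ay mice, which carry the yellow agouti allele and become obese and diabetic, aged 18 to 20 weeks. Mice of both groups were also fed a high-fat diet for 8 weeks and drank water with L-NAME, which blocks nitric oxide synthase, which together model disease of the large arteries in diabetes. SHENQI compound is a mixture of herbs that holds rehmannia, yam, hawthorn, ginseng, salvia and rhubarb among others, and either drug was given daily by gavage for 8 weeks. The macroangiopathy group, used below as the reference for each drug alone, had the same strain, diet and L-NAME and received saline. The spread behind the standard errors, intervals and p-values was estimated from all aorta groups of the series together. Besides the groups above, these were healthy mice of another strain, diabetic KK/Ay mice without L-NAME, and mice given the yangyinyiqi or huoxue part of SHENQI compound. The labels give no cage, litter or RNA extraction, so the p-values measure the spread between the samples within these groups. The expression of each gene was read as the log2 intensity of its probes after background correction and quantile normalization, and a difference of 1 on this scale is a doubling of the intensity.

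Rosiglitazone is a thiazolidinedione that binds PPARγ, a nuclear receptor of fat cells. PPARγ pairs with an RXR receptor and switches on genes of fatty acid uptake, triglyceride storage and the lipid droplet, while its relatives PPARα and PPARδ act on genes of fatty acid oxidation and share many targets. The aorta consists of an endothelium, a wall of smooth muscle and an adventitia, and in the mouse it lies in a sleeve of brown and white fat. The comparison therefore asks whether an herbal mixture and a PPARγ agonist leave the vessel and its fat with different transcripts.

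No gene of 15275 tested differed between SHENQI compound and rosiglitazone after adjustment for the number of genes (limma, Benjamini-Hochberg). The smallest adjusted p was 0.255, and 9 genes shared it. At an unadjusted p below 0.05, the threshold of the study's methods, 842 genes or 5.51% were called, against 763.75 that 5% of the genes would give. Of these calls, 495 (3.24%) were higher with SHENQI compound and 347 (2.27%) were lower. Neither the split nor the count was stable. With the spread taken from the 6 arrays of these groups alone, 580 genes were called, fewer than 763.75. Of them 347 were higher and 233 lower. With the scanner's processed signal, which differs in its background correction, scaled to its 75th percentile, 322 were higher and 409 lower, so the share of higher calls was 44% in place of 58.8%. Leaving out single arrays gave 994 higher and 417 lower without SHENQI array 2 (1411 calls) and 219 and 230 without rosiglitazone array 1 (449 calls). The lower calls were also the more numerous without SHENQI array 3 (314 higher, 387 lower) and without rosiglitazone array 2 (415 higher, 473 lower). In 1615 genes (10.6%) the 3 arrays of one drug did not overlap the 3 of the other. The precision of a typical gene was a 95% interval of 0.499 on the log2 scale to either side, a 1.41-fold range. All results that follow are therefore read against the share of 5.51%, and none of the genes named passed the adjusted test in the fit used here.

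The arrays differed in signal and in tissue before any drug effect is read. Between 58.4% and 73.9% of the gene spots were well above background on the 6 arrays, SHENQI array 1 having the lowest share. SHENQI array 1 was also on another slide and scanned on another day than the remaining 5; SHENQI arrays 2 and 3 shared a slide and the 3 rosiglitazone arrays shared another, so slide and drug cannot be told apart. Genes that define smooth muscle were well above background on all 6 arrays: Acta2, the smooth muscle actin, lay between 11.32 and 13.20, and Myh11, the smooth muscle myosin, between 13.13 and 15.37. In these bulk samples, fewer cells of a type and less RNA per cell cannot be told apart.

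Marker lists of other tissues showed what else the samples held. The 12 lymphocyte markers averaged 6.61, 10.32 and 6.91 on SHENQI arrays 1, 2 and 3 and 9.19, 7.59 and 7.32 on the rosiglitazone arrays. SHENQI array 2 was therefore 13.1-fold above the lowest array of its group, and rosiglitazone array 1 was the highest of its own. The 13 skeletal muscle markers averaged 10.40, 10.91 and 8.74 with SHENQI compound and 13.03, 8.57 and 9.19 with rosiglitazone. Rosiglitazone array 1 thus stood 21.9-fold above array 2 of the same group. The 18 adipocyte markers averaged 12.42, 11.86 and 12.40 with SHENQI compound and 10.92, 12.76 and 12.27 with rosiglitazone, and rosiglitazone array 1 was the lowest of the 6. Of 12 lymphocyte markers, all were above background on the 3 rosiglitazone arrays, and 7, 12 and 10 of them on SHENQI arrays 1, 2 and 3. The T cell markers Cd3g and Cd8a were among those not above background on SHENQI arrays 1 and 3. The 11 cardiac and atrial markers spanned 9.03 to 10.87 with SHENQI compound and 7.93 to 10.74 with rosiglitazone. Beyond the fits that leave out these arrays or add marker levels as terms, the part of these differences in the results was not tested.

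**Figure D1:**
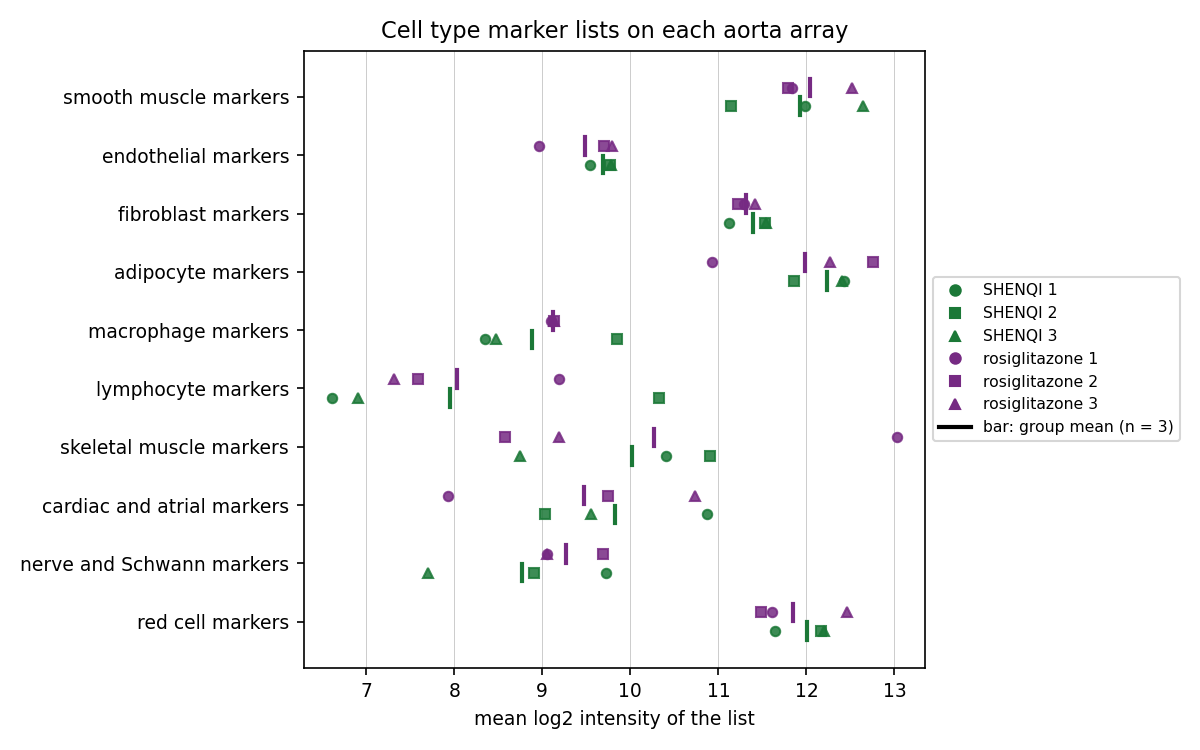
Mean log2 intensity (x axis) of 10 lists of cell type markers (y axis) on each of the 6 aorta arrays, SHENQI compound in green and rosiglitazone in purple, with symbols for the array number and bars for the group mean of 3 arrays. SHENQI array 2 (10.32) and rosiglitazone array 1 (9.19) are highest for lymphocyte markers, and rosiglitazone array 1 is highest for skeletal muscle markers (13.03) and lowest for adipocyte markers (10.92).

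The genes with the smallest p-values and no overlap between the drugs were ranked, 10 in each direction. Among those higher with SHENQI compound were Akap5, which anchors protein kinase A, and 2 receptors, Sucnr1 for succinate and Ifnar1 for type I interferons. Among those lower were Errfi1, a feedback inhibitor of EGF receptor signalling, Fgfr3, a receptor of fibroblast growth factors, and Atp6v1e1, a subunit of the proton pump of lysosomes. The 20 genes had unadjusted p between 2.35e-05 and 0.00118 and adjusted p between 0.255 and 0.631. Since they were ranked on this comparison, their values are a description. A total of 19 of the 20 remained under an unadjusted p of 0.05 in every alternative that gave a value, the exception being Acin1. The alternatives refit the arrays on which the genes were ranked, so this count carries no support by itself.

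Sucnr1 read 8.67, 9.11 and 8.87 on the SHENQI arrays and 7.08, 7.70 and 8.05 on the rosiglitazone arrays. All 3 SHENQI arrays lay above all 3 rosiglitazone arrays, and the difference was 1.27 ± 0.33 (SE; unadjusted p = 0.00118, adjusted p = 0.631 by limma), or 2.42-fold. Akap5 read 7.22, 6.84 and 7.36 with SHENQI compound against 6.17, 5.92 and 6.38 with rosiglitazone. Its difference was 0.99 ± 0.20, or 1.98-fold, and its probe lies at chr12:77434981-77435040 on the plus strand of mm9. Ifnar1 read 8.53, 8.39 and 8.12 against 7.37, 7.43 and 7.51, a difference of 0.91 ± 0.23. Of the 19 tested genes of the interferon response list none was called at unadjusted p by limma, and their median difference was 0.30, against 0.02 over all genes. Without the aorta arrays of slide 1, SHENQI array 1 among them, 5 of the 19 were called, all higher. That fit called 1205 of all genes, 713 of them higher. Ddx58, a sensor of viral RNA, was called in 7 of 24 alternatives.

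The smallest p of all belonged to Gm9961, a non-coding RNA whose probe lies at chr16:11930627-11930686 (mm9, plus strand). It read 7.16, 7.82 and 7.01 with SHENQI compound and 5.70, 6.01 and 6.0 with rosiglitazone, a difference of 1.43 ± 0.24. Gm3161, a transcript known from a clone of unclassified product, read 7.63, 7.00 and 7.43 against 5.43, 5.53 and 5.70. Its probe was not well above background on any rosiglitazone array, so SHENQI compound was at least 3.48-fold higher. Both Gm9961 and Gm3161 entered the test only through the SHENQI arrays, so their calls carry no support by themselves. Sizes of such dim genes depended on the background correction: the log2 difference of Gm3161 was 0.94 with an offset of 50 added and 3.77 with the scanner's processed signal.

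The other genes higher with SHENQI compound had smaller differences and narrow replicates. Usp36, a deubiquitinase of the nucleolus, differed by 0.79 ± 0.17. Zfp668, a zinc finger protein, read 8.28, 8.29 and 8.30 against 7.60, 7.62 and 7.49, and differed by 0.72 ± 0.16. Txlna, which binds syntaxins, differed by 0.57 ± 0.13, and Cep250, which links centrioles, by 0.62 ± 0.15. Acin1, a nuclear protein of apoptosis and splicing, differed by 0.64 ± 0.16 over its 4 probes but by 0.23 (unadjusted p = 0.441) on the brightest probe alone.

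Errfi1 read 9.48, 9.97 and 9.94 with SHENQI compound and 10.81, 11.09 and 11.08 with rosiglitazone. The groups were separate, and the rosiglitazone mean was 2.29-fold higher, a log2 difference of -1.20 ± 0.27 (unadjusted p = 0.000436). Atp6v1e1 read 9.62, 9.21 and 9.42 against 10.30, 10.43 and 10.14, a difference of -0.88 ± 0.16 (unadjusted p = 4.38e-05). Fgfr3 read 6.13, 6.50 and 6.45 against 7.85, 7.02 and 6.95, a difference of -0.91 ± 0.21. Rosiglitazone array 1 was the highest of the 6 for Fgfr3, and the difference was -0.62 without that array (unadjusted p = 0.00272).

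The other 7 genes lower with SHENQI compound included some best known from hair, testis and nose. The RIKEN transcripts 4933406C10Rik and 9530036O11Rik differed by -1.0 ± 0.20 and -0.73 ± 0.15. Cetn1, a centrin of the testis, differed by -0.59 ± 0.12. Krt84, a hair keratin, differed by -0.63 ± 0.13, with its probe well above background on 1 of 3 SHENQI arrays. Slco1a4, a transporter of organic anions, differed by -0.48 ± 0.10, with 2 of 3 SHENQI arrays above background. The olfactory receptors Olfr469 and Olfr979 were lower too. Olfr469 differed by -0.69 ± 0.14, and Olfr979 was not well above background on any SHENQI array, so rosiglitazone was at least 1.95-fold higher. Krt84, Slco1a4 and Olfr979 entered the test only through the rosiglitazone arrays, so their calls carry no support by themselves.

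**Figure D2:**
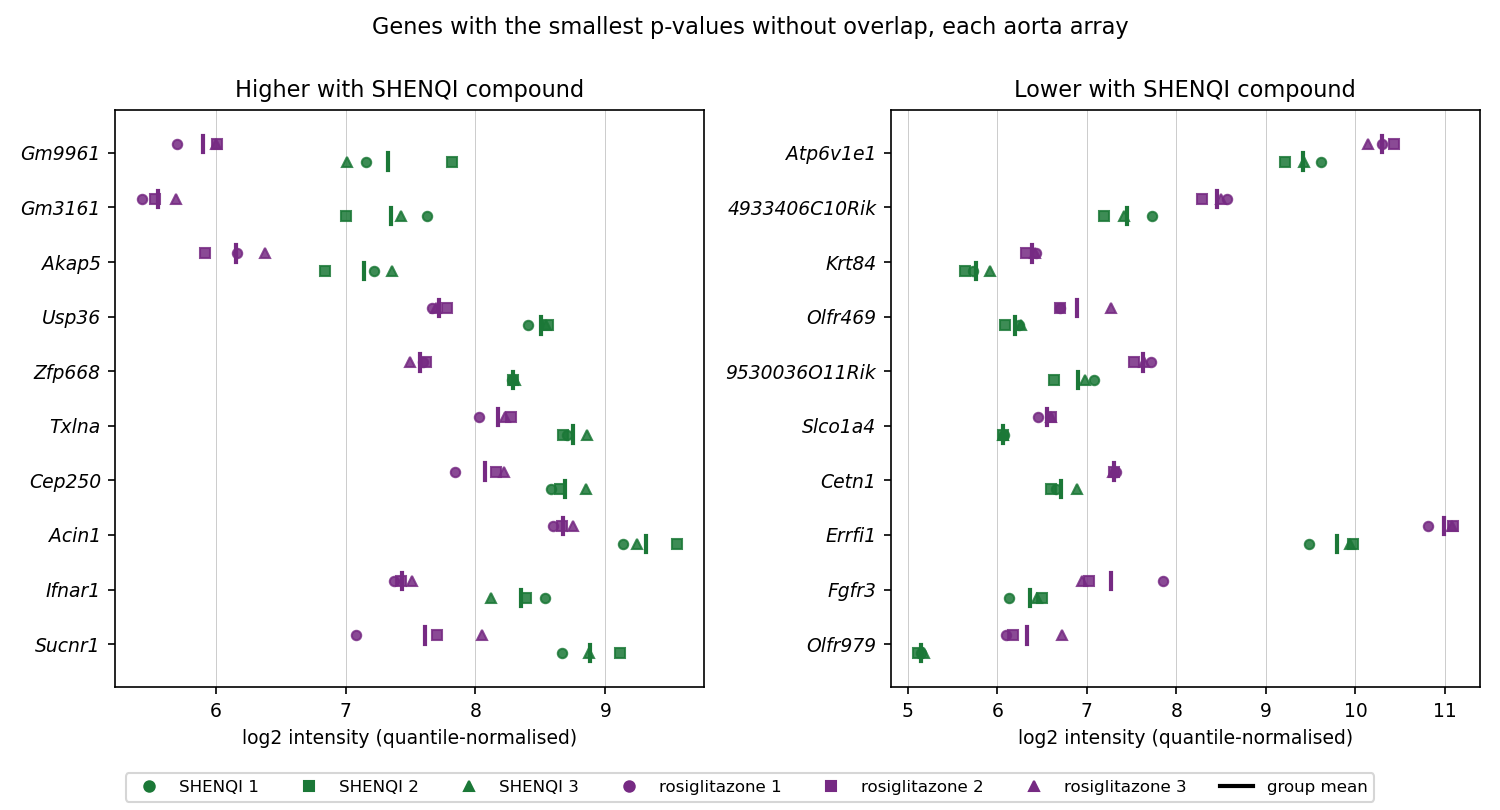
Log2 intensity (x axis) of the 10 genes ranked as higher (left) and the 10 ranked as lower (right) with SHENQI compound, on each aorta array; green symbols are SHENQI arrays, purple symbols rosiglitazone arrays, bars group means of 3 arrays. The groups do not overlap in any of the 20 genes because the ranking required it, and the gap runs from the 1.80 of Gm3161 to the 0.48 of Slco1a4 in mean log2 difference.

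Each drug was also set against the macroangiopathy group. Both comparisons use the same 3 macroangiopathy arrays and are not independent of each other, and those arrays lay on a slide that held neither drug, so slide and drug cannot be told apart here either. Neither drug had a gene past the adjusted test in aorta (1 passed for SHENQI compound without SHENQI array 1), and at unadjusted p 197 genes (1.29%) differed for SHENQI compound and 448 (2.93%) for rosiglitazone. For SHENQI compound this count was 415 without SHENQI array 1, 321 without SHENQI array 3, and 101 and 118 without macroangiopathy arrays 2 and 3. For rosiglitazone it was 209 without rosiglitazone array 1, and 224 and 182 without macroangiopathy arrays 2 and 3. Genes named against this group, here and below, were picked on the difference between the drugs. Their values against it reuse the same drug arrays and are a description. Sucnr1 was 1.07 ± 0.33 above the model with SHENQI compound (unadjusted p = 0.00439) and differed by -0.20 with rosiglitazone (unadjusted p = 0.545). Gm9961 was likewise 1.02 ± 0.24 above it with SHENQI compound (unadjusted p = 0.000676) and differed by -0.40 with rosiglitazone (unadjusted p = 0.119). Cep250 showed the other arrangement, with a difference of 0.03 for SHENQI compound and of -0.58 for rosiglitazone (unadjusted p = 0.00125). Fgfr3 differed from the model by -0.25 with SHENQI compound (unadjusted p = 0.256) and by 0.67 with rosiglitazone (unadjusted p = 0.00546). For Akap5 and 4933406C10Rik the drugs stood on opposite sides of the model: Akap5 by 0.44 (unadjusted p = 0.0416) and -0.54 (unadjusted p = 0.0155), and 4933406C10Rik by -0.47 (unadjusted p = 0.0285) and 0.53 (unadjusted p = 0.0145).

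PPAR target genes are the transcripts on which a PPARγ agonist acts most directly. Of 43 listed, 41 were tested. At unadjusted p, 2 were higher with SHENQI compound and 2 lower, 9.76% against 5.51% of all genes, and none passed after adjustment. Among these calls, Fabp5 entered the test only through the rosiglitazone arrays, so the share carries no support by itself. The median difference of the list was 0.12, with 24 members above 0 and 17 below. The intervals were wide, with a median of 1.07 to either side, a 2.11-fold range. Most targets of the lipid droplet and of fatty acid uptake had differences well inside it: Fabp4, the fatty acid binding protein of fat cells, differed by -0.00 with a 95% interval from -1.01 to 1.0. Cd36, a fatty acid transporter, differed by 0.20 (interval from -0.87 to 1.27) and Lpl, lipoprotein lipase, by 0.44 (from -0.76 to 1.63). Plin2 differed by -0.51 (from -1.42 to 0.41), Cidec by 0.61 (from -0.55 to 1.77) and Ucp1, the uncoupling protein of brown fat, by -0.55 (from -1.81 to 0.71). Each of these intervals holds a 2-fold difference in at least 1 direction, so the data do not show that the drugs act alike on them.

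Apoe, an apolipoprotein, read 16.06, 15.65 and 15.47 with SHENQI compound and 14.71, 15.36 and 15.08 with rosiglitazone. The groups did not overlap, and the difference was 0.68 ± 0.24 (unadjusted p = 0.0114, adjusted p = 0.824 by limma). It was 0.51 without SHENQI array 1 or without rosiglitazone array 1, and no longer called. Angptl4, a secreted inhibitor of lipoprotein lipase, read 14.06, 14.29 and 13.97 against 12.33, 13.97 and 13.20. Its difference was 0.94 ± 0.41 (unadjusted p = 0.0342), and 0.52 without rosiglitazone array 1 (unadjusted p = 0.216). Its call was also lost without SHENQI array 1 (0.96), SHENQI array 2 (0.85) or rosiglitazone array 3 (0.95). Against the macroangiopathy group, Apoe differed by -0.02 with SHENQI compound and by -0.70 with rosiglitazone (unadjusted p = 0.00963).

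Acot1, an acyl-CoA thioesterase, read 8.10, 7.75 and 7.38 with SHENQI compound and 10.89, 9.38 and 8.50 with rosiglitazone. The rosiglitazone mean was 3.60-fold higher, a log2 difference of -1.85 ± 0.64 (unadjusted p = 0.0102), and -1.19 without rosiglitazone array 1 (unadjusted p = 0.0775). Its close paralog Acot2 may share probe signal with it and differed by -0.19 (unadjusted p = 0.701). Fabp5 read 5.09, 6.0 and 5.60 against 9.36, 6.15 and 5.93, so that its difference of -1.58 lay in rosiglitazone array 1 and was -0.48 without it (unadjusted p = 0.243). The probe of Fabp5 was well above background on 1 of 3 SHENQI arrays, so Fabp5 entered the test only through the rosiglitazone arrays. Its call was also lost without SHENQI array 1 (-1.34). Rosiglitazone array 1 had the lowest value of the 6 arrays for 28 of the 41 targets. With that array and SHENQI array 2 left out together, 0 of the 41 targets were called at unadjusted p by limma, and 1 was called without rosiglitazone array 1 alone and 2 without SHENQI array 1. The 1 was Ehhadh, an enzyme of peroxisomal fatty acid oxidation, and the 2 were Ehhadh and Acot1. Ehhadh differed by -0.97 with all arrays (unadjusted p = 0.0502), by -1.30 without rosiglitazone array 1 and by -1.34 without SHENQI array 1, and was called in 13 of 24 alternatives. With the marker levels of lymphocytes, skeletal muscle and adipocytes as terms of the fit, 10 were called, 5 in each direction. That fit called 1385 of all 15275 genes. The adipocyte markers also hold some of the targets (Adipoq, Plin1, Cidec, Pnpla2, Ucp1 and Cidea), so this count carries no support by itself.

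**Figure D3:**
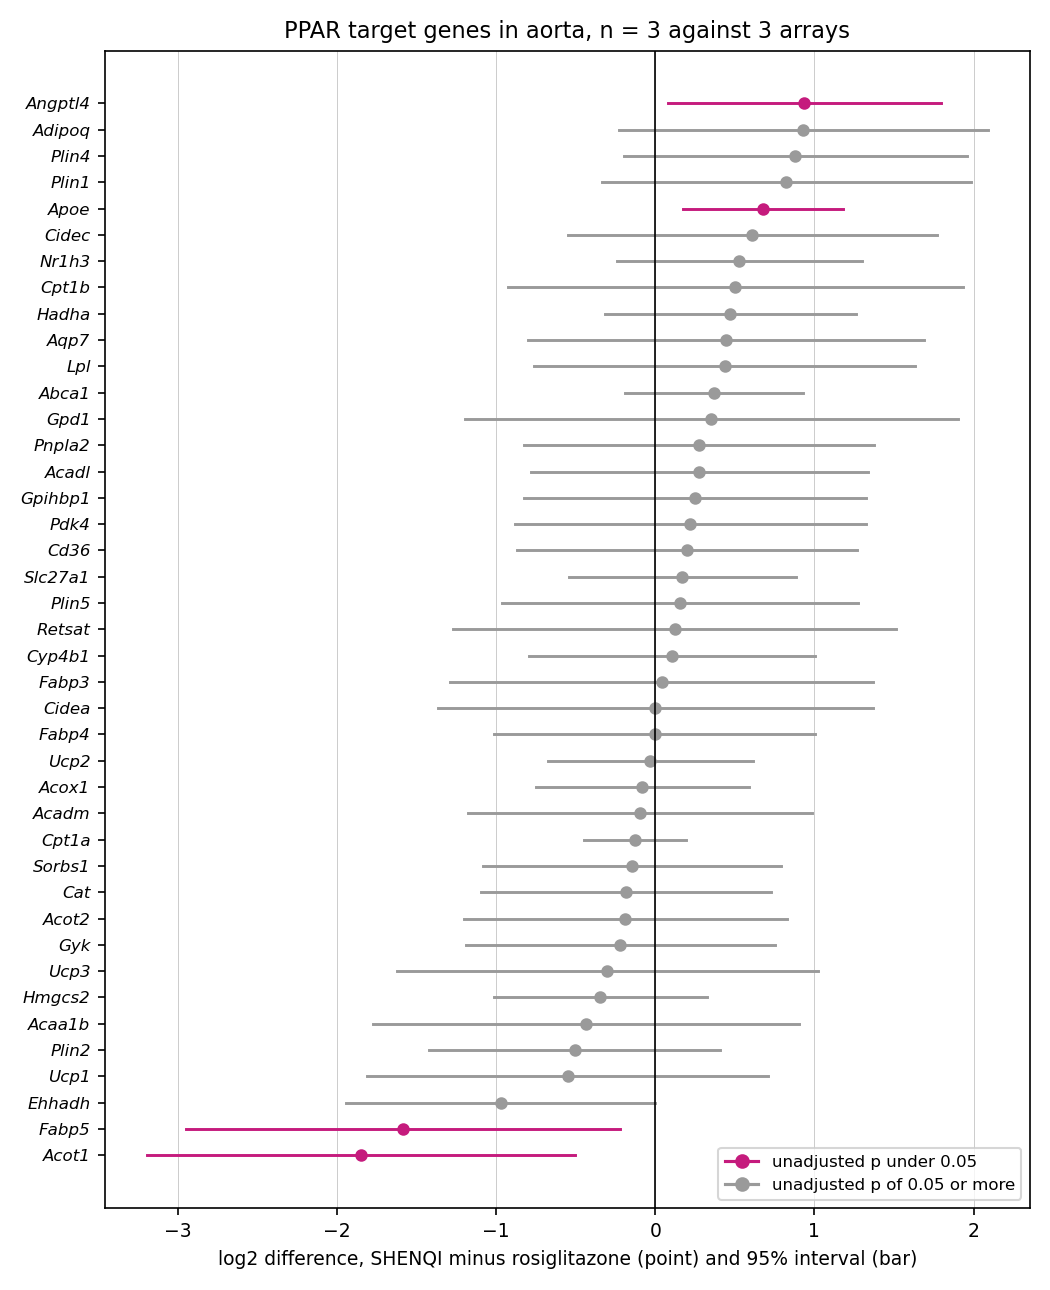
Log2 difference between SHENQI compound and rosiglitazone (points, x axis) with its 95% interval (bars) for the 41 tested PPAR target genes (y axis), 3 arrays against 3; pink marks an unadjusted p below 0.05. The differences run from -1.85 for Acot1 to 0.94 for Angptl4, and 37 of the intervals include 0.

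The receptors and their partners were near the background share, with 1 of 17 called. Without SHENQI array 2, 5 were called, all higher, but that fit called 1411 of all genes, 994 of them higher. Ncor1, a corepressor of nuclear receptors, was higher with SHENQI compound by 0.42 ± 0.15 (unadjusted p = 0.0146), and by 0.35 without rosiglitazone array 1 (unadjusted p = 0.0617) or 0.34 without SHENQI array 1 or 3. Pparg read 13.93, 12.44 and 13.36 with SHENQI compound and 10.87, 12.87 and 12.63 with rosiglitazone, a difference of 1.12 ± 0.64 that did not pass (unadjusted p = 0.1). Ppara gave 1.08 ± 0.70 (unadjusted p = 0.144). Both receptors were lowest on rosiglitazone array 1. That array also had the lowest mean of the adipocyte markers, a list that holds Ppara itself, and the cause was not tested.

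Lipid synthesis and the fat cell list gave a member each. Srebf1, the transcription factor of fatty acid synthesis, was the 1 of 17 synthesis genes called, and read 14.77, 13.71 and 14.59 with SHENQI compound against 13.16, 13.39 and 13.80. Its difference was 0.91 ± 0.34 (unadjusted p = 0.0154), and the call was lost without SHENQI array 1 (0.70), SHENQI array 3 (0.79) or rosiglitazone array 1 (0.76). Scd1, a fatty acid desaturase, read 12.89, 12.17 and 13.38 against 11.14, 11.69 and 11.28 without overlap, and its difference of 1.44 ± 0.73 did not pass (unadjusted p = 0.0657). The 18 adipocyte markers had a median difference of 0.28, with 13 above 0 and 5 below. Only Elovl3, an elongase of brown fat, was called, and it was lower with SHENQI compound. It read 5.70, 5.15 and 5.67 with SHENQI compound, not well above background on any array, and 5.85, 8.15 and 7.30 with rosiglitazone, so rosiglitazone was at least 2.95-fold higher. Elovl3 entered the test only through the rosiglitazone arrays. Its call was lost without SHENQI array 2 (-1.42), rosiglitazone array 2 (-1.07) or rosiglitazone array 3 (-1.49). Lep, encoding leptin, differed by 0.95 ± 0.49 (unadjusted p = 0.0676), with no overlap between the groups. Of the 16 tested genes of cholesterol synthesis and its LDL receptor none was called at unadjusted p by limma; 15 had differences below 0 and the median was -0.34. Without the aorta arrays of slide 1, 4 of them were called, all lower, where 1205 of all genes were called, 492 of them lower. Without rosiglitazone array 3, 1 of them was called.

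Insulin signalling showed Igf1, a growth factor, and Pik3r1, the regulatory subunit of phosphoinositide 3-kinase, higher with SHENQI compound. They were 2 of 18 members, 11.1% against 5.51% of all genes. Igf1 read 8.23, 9.25 and 8.72 against 7.75, 8.11 and 8.25, which overlap, and differed by 0.70 ± 0.29 (unadjusted p = 0.0287). It was 0.44 without SHENQI array 2 (unadjusted p = 0.164), 0.70 without SHENQI array 3 and 0.55 without rosiglitazone array 1, none of them called. Pik3r1 differed by 0.48 ± 0.22 (unadjusted p = 0.0406), and by 0.32 without SHENQI array 3 or without rosiglitazone array 1.

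Chaperones and genes of the unfolded protein response gave calls in a single direction. None of 23 was higher and 3 were lower with SHENQI compound at unadjusted p, 13.0% against 5.51% of all genes, and the median difference was -0.34 with 19 members below 0. Hspa8, the constitutive HSP70 chaperone, read 11.91, 12.21 and 12.45 with SHENQI compound and 12.78, 13.13 and 13.03 with rosiglitazone. The groups did not overlap, and the difference was -0.79 ± 0.22 (unadjusted p = 0.00237, adjusted p = 0.678 by limma). Hspb8, a small heat shock protein, read 11.25, 10.32 and 10.76 against 12.08, 11.73 and 11.49, a difference of -0.99 ± 0.35 (unadjusted p = 0.0114) that was -0.76 and no longer called without SHENQI array 2. Atf4, the transcription factor of the integrated stress response, differed by -0.65 ± 0.27 (unadjusted p = 0.0289) and by -0.26 without SHENQI array 1 (unadjusted p = 0.254) or -0.55 without rosiglitazone array 1 (unadjusted p = 0.093). The number of members called lower ranged from 2 to 4 over the alternatives, and in none of them was a member called higher. Against the macroangiopathy group Hspa8 differed by -0.63 with SHENQI compound (unadjusted p = 0.011) and by 0.16 with rosiglitazone (unadjusted p = 0.478).

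Cdkn1a, encoding the cell cycle inhibitor p21 and held by the glucocorticoid response list, read 8.31, 7.03 and 8.22 with SHENQI compound and 10.36, 9.47 and 8.13 with rosiglitazone. The groups overlapped, the difference was -1.46 ± 0.44 (unadjusted p = 0.00415), and it was -0.94 without rosiglitazone array 1 (unadjusted p = 0.0362). It was -0.53 without both that array and SHENQI array 2 (unadjusted p = 0.185), and the fit on the 6 arrays alone did not call it (unadjusted p = 0.0558). Angptl4 was the other of 11 glucocorticoid response genes called, which made 18.2% of the list against 5.51% of all genes. Of 20 immediate early genes, 14 had differences below 0 and 1 (5%) was called, near the share of all genes. This was Fosb, at -0.46 ± 0.21 (unadjusted p = 0.0453 by limma). Its call was lost without SHENQI array 2 or 3 or rosiglitazone array 2 or 3 (-0.35 to -0.53 over all 6 omissions). Of 22 proteasome and ubiquitin genes, 17 had differences below 0, and Psma1 (-0.38 ± 0.16) and Psmc6 (-0.35 ± 0.15) were called, 9.09% of the list. Without SHENQI array 1 these were -0.23 and -0.30, without SHENQI array 3 -0.33 and -0.27, and without rosiglitazone array 3 -0.33 and -0.31, none of them called. Psmc6 also lost its call without rosiglitazone array 1 (-0.34). Without SHENQI array 2, 4 members of this list were called lower and 1 higher, against 417 and 994 of all genes.

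Antioxidant genes were called in both directions, 2 higher and 1 lower of 18, which is 16.7% against 5.51% of all genes. Keap1, which holds the transcription factor NRF2 in the cytoplasm, read 11.76, 11.41 and 11.79 with SHENQI compound and 11.17, 11.19 and 11.05 with rosiglitazone. It differed by 0.52 ± 0.16 (unadjusted p = 0.00511) and stayed under 0.05 whichever array was left out. Gpx3, the secreted glutathione peroxidase, read 14.09, 12.90 and 13.59 against 11.23, 12.81 and 12.27, a difference of 1.42 ± 0.53 (unadjusted p = 0.0154) that was 0.98 without rosiglitazone array 1 (unadjusted p = 0.0944) and 1.14 without SHENQI array 1 (unadjusted p = 0.0702). Nfe2l2, which encodes NRF2, read 8.83, 9.33 and 9.12 against 10.43, 9.26 and 9.35. Its difference of -0.59 ± 0.25 (unadjusted p = 0.0286) came down to -0.22 without rosiglitazone array 1 (unadjusted p = 0.265) and to -0.46 without SHENQI array 1 (unadjusted p = 0.114). Relative to the macroangiopathy group, Keap1 differed by 0.04 with SHENQI compound and by -0.48 with rosiglitazone (unadjusted p = 0.00832), and Nfe2l2 by 0.14 and 0.73 (unadjusted p = 0.00873 for rosiglitazone).

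Heparan sulfate, a sugar chain of the vessel wall matrix, is built on a linker that Xylt2 and B4galt7 start, and is lengthened by Ext2. These were higher with SHENQI compound, 3 of 20 members, and Ndst4, a sulfotransferase, was lower. The calls made 20% of the list, against 5.51% of all genes. Xylt2 read 9.11, 8.90 and 9.24 against 8.30, 8.56 and 8.80, a difference of 0.53 ± 0.17 (unadjusted p = 0.00695). B4galt7 differed by 0.26 ± 0.11 and Ext2 by 0.42 ± 0.18. Ndst4 was not well above background on any SHENQI array and was at least 1.31-fold higher with rosiglitazone. It entered the test only through the rosiglitazone arrays, so its call carries no support by itself. B4galt7 and Ext2 lost their calls without SHENQI array 1 or 3 or rosiglitazone array 1 or 2 (0.22 to 0.25 and 0.30 to 0.39), and Ndst4 without SHENQI array 2 or 3 or rosiglitazone array 3 (-0.27 to -0.39). The list had 1 call without SHENQI array 3 and 2 without SHENQI array 1 or rosiglitazone array 2, and the fit on the 6 arrays alone called 1 of the 20 members. The Wnt pathway, of which 29 genes were tested, gave Tcf7l1 alone, higher by 0.80 ± 0.37 (unadjusted p = 0.0465), whose call was lost without SHENQI array 2 or 3 or rosiglitazone array 1 or 2 (0.62 to 0.85), and 0 of 17 inhibitors of JAK-STAT signalling were called.

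**Figure D4:**
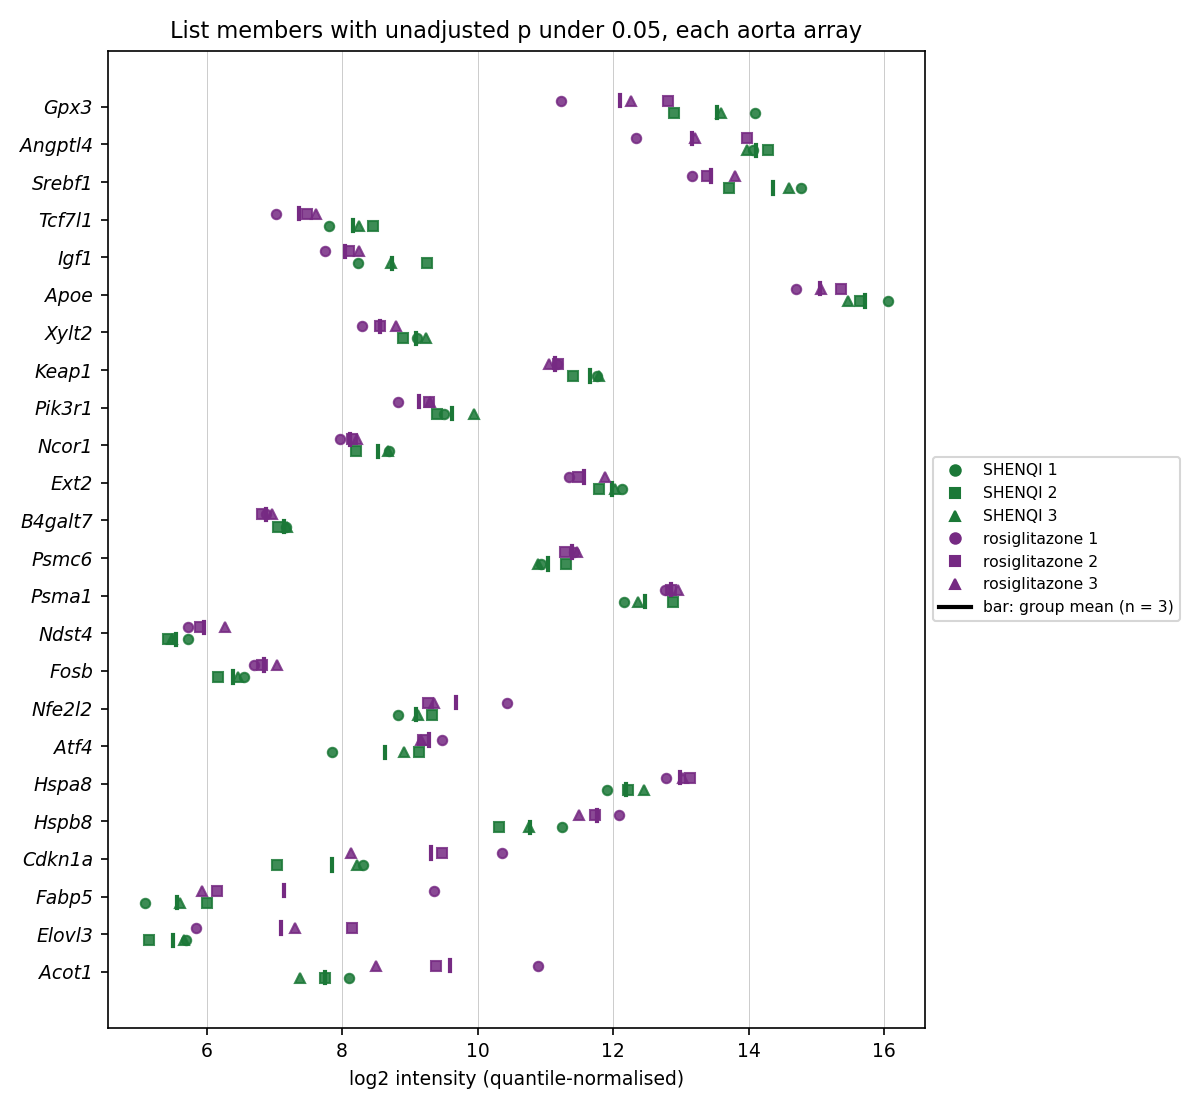
Log2 intensity (x axis) on each aorta array of the 24 list members with an unadjusted p below 0.05 (y axis), ordered by their log2 difference; green symbols are SHENQI arrays, purple symbols rosiglitazone arrays, bars group means. Rosiglitazone array 1 stands apart from arrays 2 and 3 for Fabp5 (9.36 against 6.15 and 5.93) and Nfe2l2 (10.43 against 9.26 and 9.35).

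Genes of the vessel wall itself gave no calls with all arrays in the fit. None of 18 smooth muscle genes passed at unadjusted p by limma, with a median of -0.06. The same was true of 32 tested matrix genes (median 0.14), among them Col1a1 at 0.92 ± 0.63 and Eln, encoding elastin, at 0.72 ± 0.62. Of 23 endothelial and nitric oxide genes none was called; Tie1, an endothelial receptor kinase, read 10.06, 9.47 and 9.83 against 8.48, 9.14 and 9.42 and differed by 0.78 ± 0.42 (unadjusted p = 0.0813). No gene was called among 14 of vascular inflammation and adhesion, 19 of the cell cycle, 24 of oxidative phosphorylation and 18 of the circadian clock. The marker lists of skeletal muscle, heart, macrophages, lymphocytes, nerve, red cells and fibroblasts held no call either. Of the 18 lists without a call, 3 (skeletal muscle, cardiac and red cell markers) had none under any alternative, and the most in any was the 5 of the interferon list. Single arrays brought 3 circadian clock genes (without SHENQI array 2), 2 macrophage markers (without SHENQI array 2) and 2 matrix genes (without rosiglitazone array 3) past unadjusted p. Over all genes, 1411 were called without SHENQI array 2 and 945 without rosiglitazone array 3. Over the 31 lists together, 24 of 514 distinct members tested were called, 4.67%, which is no more than the 5.51% of all genes.

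**Figure D5:**
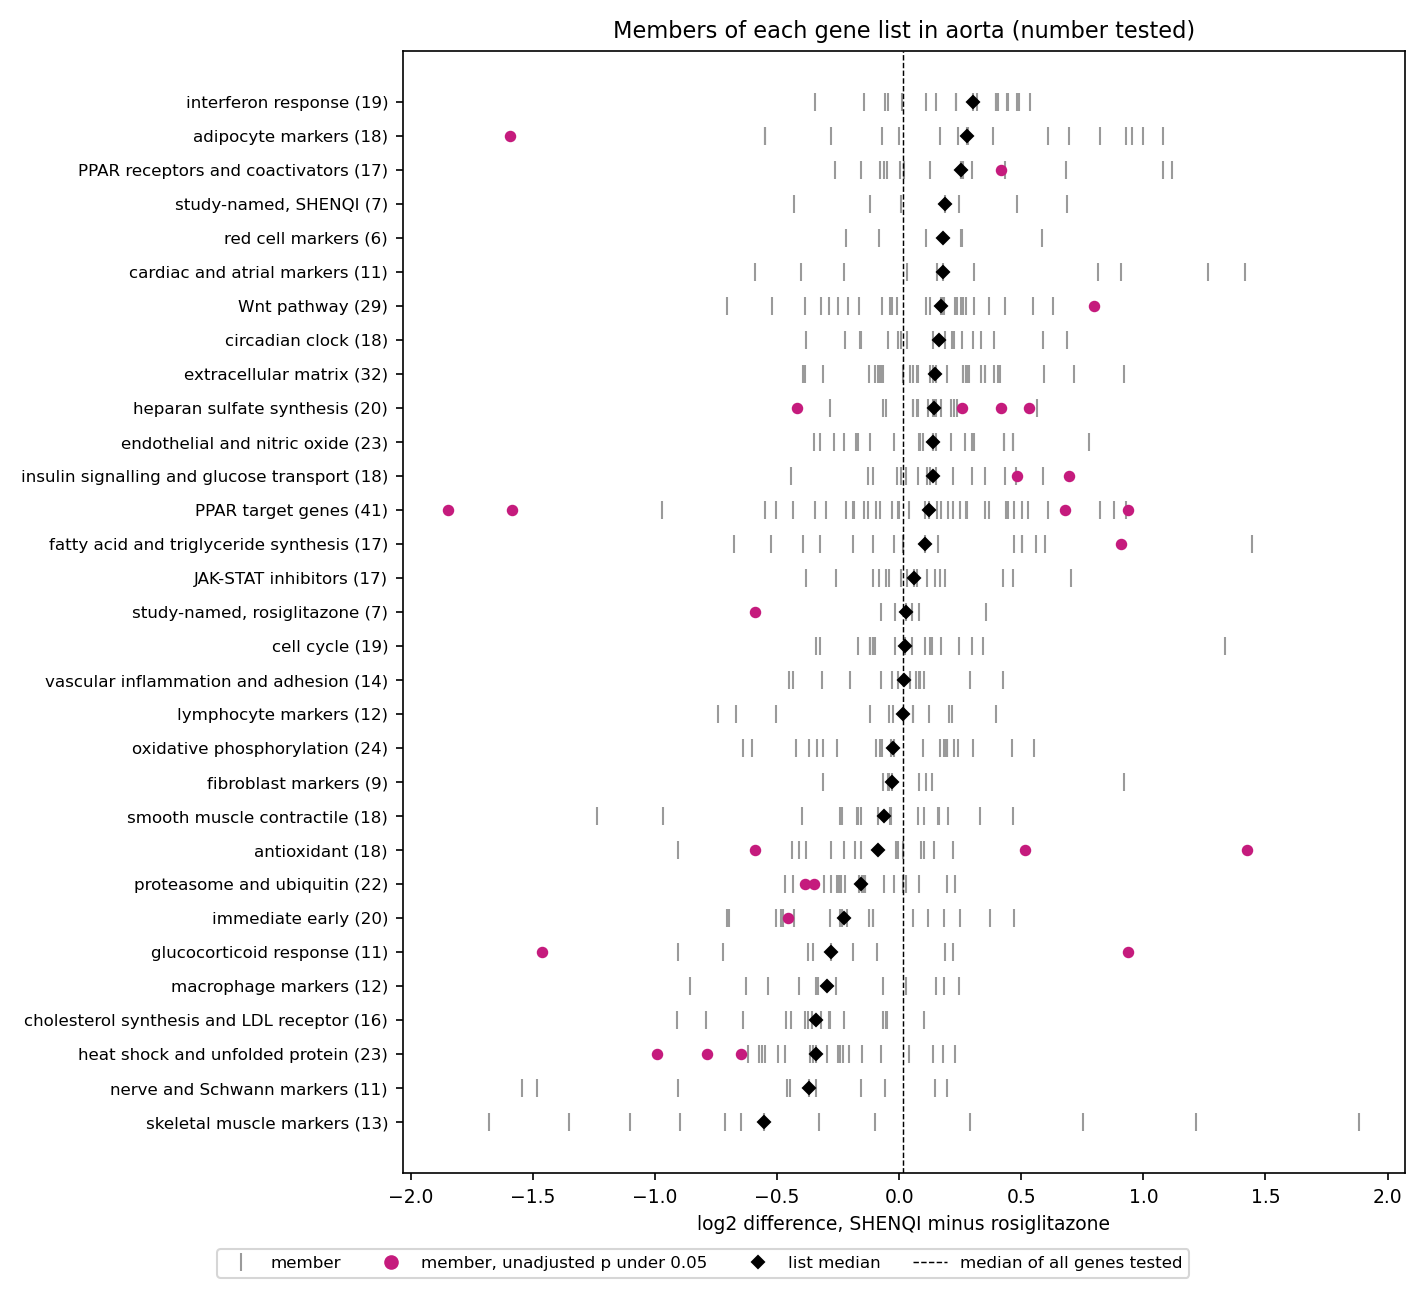
Log2 difference between SHENQI compound and rosiglitazone (x axis) of every tested member of the 31 gene lists (y axis, with the number tested), as grey ticks, with pink dots for unadjusted p below 0.05 and black diamonds for list medians; the dashed line is the median of all genes, 0.02. Calls are spread over the lists, 24 distinct genes in all, and the median of the chaperone list is -0.34.

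Genes that the study itself names for either drug were chosen on these samples, so their values are not independent evidence. The study named them from disease modules with drug-target information, or from the model group set against a treated group. Per1 was named for the yangyinyiqi part, and Smad7 and Dbp for the huoxue part, which are not in this contrast. A gene changed alike by both drugs would differ little here. Of 7 named for SHENQI compound or its parts, none was called at unadjusted p by limma. Mcm8, a helicase of DNA repair, read 6.87, 6.75 and 6.62 against 6.39, 6.59 and 6.53 and differed by 0.24 ± 0.13 (unadjusted p = 0.0733); it was called without SHENQI array 3 (0.31). Irf7, a transcription factor of the interferon response, differed by 0.48 ± 0.47, Dbp and Per1 of the circadian clock by 0.69 ± 0.66 and 0.19 ± 0.29, Cdk7 by -0.12 ± 0.12, Smad7 by -0.43 ± 0.51 and Nedd4l by 0.01 ± 0.27. Of 7 tested genes named for rosiglitazone, Nfe2l2 was called as described above. Mta1 differed by -0.08 ± 0.18, Rb1 by -0.02 ± 0.13, Mybl2 by 0.05 ± 0.37, Polr2a by 0.36 ± 0.35 and Psmd3 by 0.03 ± 0.25. Nr0b2 was not well above background on any of the 6 arrays and was not tested.

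Olfactory receptors, a large family of the nose, gave an uneven count. Of 917 on the array, 182 were tested. At unadjusted p none was higher and 24 (13.2%) were lower with SHENQI compound, against 3.24% and 2.27% of all genes. A receptor that is dim in both groups entered the test only through the drug in which it was brighter, so this count carries no support by itself. Without the filter, 29 of 917 were higher and 53 lower with a median of -0.03, against 711 and 525 of all genes. Of the 88 above background on all 6 arrays, 10 were lower and none higher, against 239 and 484 of all genes. SHENQI array 1 had the lowest share of spots above background, and without it 39 of the 182 were lower, as were 379 of all genes. Without SHENQI array 2, 3 were higher and 13 lower, against 994 and 417 of all genes.

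The same contrast was set against skeletal muscle, where 3 SHENQI and 3 rosiglitazone arrays exist. There, 11 of 15557 genes (0.0707%) differed after adjustment. The muscle arrays of the drugs lay on different slides too, and 2 of the 3 rosiglitazone arrays were scanned on another day than the rest, so slide and drug cannot be told apart in muscle either. Of 144 named genes tested, none had an aorta difference that differed from its muscle difference after adjustment (smallest adjusted p 0.172 by limma), against 0.0129% of all genes. At unadjusted p, 47 of them did, against 12.2% of all genes, but the names were ranked on the aorta. Hspa8 differed by -0.79 in aorta and by 0.61 in muscle, an unadjusted interaction p of 0.000123. The difference of Ifnar1 was 0.91 in aorta and -0.08 in muscle, with an unadjusted interaction p of 0.000581 by limma. That of Sucnr1 was 1.27 in aorta and 0.32 in muscle, with an unadjusted interaction p of 0.129 by limma.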

How the data were processed

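Total RNA of aorta and skeletal muscle was hybridised to single-colour Agilent mouse arrays, and the deposited scanner files hold spot intensity values from Feature Extraction 10.7.3.1; the submitters' processing notes name version 10.7. The authors' value table holds log2 values per probe after background correction and quantile normalization, per the file headers and the study's methods; it served as an alternative. From the deposited intensity values, the median spot signal was background-corrected with normexp (offset 0), quantile-normalized over 42 arrays in limma 3.58.1 (R 4.3.3) and put on the log2 scale. Spots marked irregular were set missing, and the probes of a symbol were averaged (34891 of 41174 probes carry a symbol, 21186 genes). Genes were tested where 1 probe or more exceeded background clearly on each of the 3 arrays of either drug. The fit held 21 aorta arrays in 7 group means (14 residual degrees of freedom), so all groups share the estimate of the spread. The healthy group was uneven, its smooth muscle genes averaging 8.84, 11.64 and 10.95 in array order. Its own part in the spread was not tested separately. P-values were adjusted over all genes tested by Benjamini-Hochberg. Intervals are 95% intervals of this fit, and the number of arrays limits the precision. The scripts were tested on simulated data with 200 changed genes. Named genes were to be the 10 largest changes in each direction past the adjusted test; as none passed it, they are the 10 smallest unadjusted p-values in each direction without overlap between the drugs, with a gene symbol and with all probes above background in the higher group, up to 4 members of each of the 31 lists with the smallest p, and the genes the study names. The members and lists were chosen with earlier results of these data known. Other members are named with their values to describe a list and were chosen after their values were seen. Alternatives covered the arrays in the fit, slides, background correction, scaling, filters, probes of a gene, the variance model, pairing and each array left out; leaving out SHENQI array 2 and rosiglitazone array 1 together, marker levels as terms, and leaving out arrays in the comparisons with the macroangiopathy group were chosen after seeing the data. At-least folds compare the bright group's mean with the dim group's mean of the higher of its own signal and the lowest signal well above background. One of the genes the study names for rosiglitazone is not reported here. Probe positions are those of mm9 in the scanner files.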

Additional observations from a re-analysis of the deposited data

Results flagged for a closer look

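The test of the aorta difference against the muscle difference (limma, 42 arrays, Benjamini-Hochberg over 15557 genes) called 2 genes. Gata1, a transcription factor of red cell precursors, had an aorta difference minus muscle difference of -1.58 ± 0.26 (adjusted p = 0.0128). In muscle it read 6.56, 7.86 and 7.49 with SHENQI compound and 5.66, 5.75 and 5.64 with rosiglitazone, where its probe was not well above background on any array, so SHENQI compound was at least 3.07-fold higher there. In aorta it was above background on 1 of 3 SHENQI arrays and 3 of 3 rosiglitazone arrays, with levels between 5.80 and 6.06. Psme3, a proteasome activator subunit, had an aorta difference minus muscle difference of -4.14 ± 0.70 (adjusted p = 0.0128). It differed by -0.81 in aorta and by 3.33 in muscle, where it read 12.41, 14.51 and 14.70 with SHENQI compound and 9.83, 11.00 and 10.80 with rosiglitazone. In muscle, as in aorta, the drugs lay on different slides, and 2 of 3 rosiglitazone muscle arrays had another scan day, so slide and drug cannot be told apart. Neither was among the genes named for aorta. With 3 arrays a group, single arrays were not tested as outliers.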

How the results depend on the processing

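The count of 0 genes after adjustment held in 20 of 24 alternatives, in which the count at unadjusted p was between 449 and 1411. With all 42 arrays in the fit, 10 genes passed after adjustment and 1487 at unadjusted p; among the 10 were Gm9961, Gm3161, Zfp668, Ifnar1, Txlna, Atp6v1e1 and 4933406C10Rik. Without the aorta arrays of slide 1, 2 passed (4933406C10Rik and C230096K16Rik). With the marker levels of lymphocytes, skeletal muscle and adipocytes as terms, 1 passed (Gys2, -1.90) and 1385 were called at unadjusted p. Leaving out each array in turn gave 0 to 1 genes after adjustment and 449 to 1411 at unadjusted p, the extremes being without rosiglitazone array 1 and without SHENQI array 2; the 1 gene, C230096K16Rik, passed without SHENQI array 1, which is also the comparison within a single scan day. With slide as a random block (correlation 0.0633), 637 genes were called at unadjusted p. The replicate block gave 0 genes after adjustment and 836 at unadjusted p. Same-numbered arrays correlated in their deviations from the group means by -0.171, -0.224 and 0.460. Only array 3 correlated best with its own number. The deviations of 3 arrays sum to 0 in each group, so these correlations cannot show whether the numbers pair the samples. Leaving out each array of the groups compared gave 101 to 415 genes at unadjusted p for SHENQI compound against the macroangiopathy group and 182 to 643 for rosiglitazone. Of 44 named genes called at unadjusted p, none changed sign under any alternative and 23 lost the call under at least 1. Without rosiglitazone array 1, 15 lost it, and 13 lost it in the fit on the 6 arrays alone. The cause was not tested. Most were named by their p-values on these same arrays, so the share that kept its call carries no support by itself. Of the named genes not called, 58 were called under at least 1 alternative, each keeping its sign there, and 183 values changed sign without a call. Strict filtering left 36 of the 44 to test. Dim genes limit the sizes: the log2 difference of Olfr979 ran from -3.64 with the processed signal to -0.43 with an offset of 50.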
